A study of Mus musculus with 12 samples.

Results

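Busulfan kills cells by joining DNA bases to each other, and 31 genes of the machinery that repairs such crosslinks were followed in mouse spleen. The 31 genes were chosen by symbol from a gene table of 19376 rows: 8 of the Fanconi core complex, 5 of the ubiquitin cycle around the FANCD2 and FANCI pair, 8 nucleases and their scaffold, 8 of homologous recombination and 2 of translesion synthesis. All 31 were found, and all 31 were among the 15079 genes that passed the filter on low counts. RNA was sequenced from spleen in 12 libraries, 3 in each of 4 groups. Control mice had no treatment, AOS mice received alginate oligosaccharides at 10 mg/kg for 5 weeks, busulfan mice received the drug at 40 mg/kg on a single occasion, and the last group received busulfan followed by the same AOS course. The strain is given as IRC, no age, sex or time of collection is given, and the label code of the busulfan libraries, which differs by a letter from the design text, was read as busulfan without AOS. Nothing in the labels ties the 3 libraries of a group to different animals, so each p-value reflects only how far these libraries spread, and that spread may be technical.

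A crosslink between the strands of DNA blocks replication forks. In the Fanconi pathway a core complex, with the ligase FANCL and the conjugating enzyme UBE2T, attaches ubiquitin to FANCD2 and FANCI. Nucleases held by SLX4 then cut the crosslink free, polymerases pass the remaining lesion, homologous recombination with BRCA2 rebuilds the broken strand, and USP1 with WDR48 removes the ubiquitin. Inherited loss of many of these genes causes Fanconi anaemia, a disease of bone marrow failure in which cells are sensitive to crosslinking drugs, and in the mouse the spleen is itself a blood-forming organ in which red cell precursors divide.

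Library totals ran from 15051297 to 16241883 counts, and the 31 genes together took 0.10% to 0.124% of them. The lowest count of any of the genes in any library was 38, for the recombination gene Xrcc3. Markers of spleen were present in every library: the B cell gene Cd79a, the T cell gene Cd3e, the red pulp macrophage factor Spic and the spleen factor Tlx1 were all detected, the lowest of 8 such markers being Madcam1 with 136 counts. Digestive enzyme transcripts that mark pancreatic acinar cells (14 genes) made up 0.251%, 3.85% and 0.451% of the AOS libraries, against 0.00176% to 0.205% elsewhere. Fat cell transcripts were high in control 1, where 7 genes summed to 487 CPM (counts scaled to the library size, after TMM adjustment). Log2 differences without AOS 2 or control 1 are given below for Fan1, Slx4, Dclre1b and Rad51c, and not for every gene.

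Most of the repair genes lay below the median level of the genes tested. On the scale of FPKM, which divides by transcript length, the median of the 31 genes was 6.71 against 9.04 for all genes tested, and 23 of the 31 lay below the latter. Fancl, the ubiquitin ligase of the core complex, had the highest mean at 52.5 FPKM (SD 6.75 over 12 libraries, range 42.9 to 66.8), followed by the deubiquitinase Usp1 at 48.3 (SD 5.95). The ranges of these 2 genes overlapped. Wdr48, the activating partner of USP1, came next at 16.6, then Brca1 at 13.6 and the translesion polymerase Rev1 at 13.5. The lowest means belonged to the nucleases Fan1 at 1.69 FPKM (SD 0.476) and Dclre1b at 1.83 (SD 0.614), and to Xrcc3 at 1.76 (SD 0.538), and these 3 could not be ordered within their spread. Exonic bases of 17 of the genes are shared with another gene in the annotation, up to 26.6% in Rev1 (with Eif5b), 16% in Fanci (with Polg) and 13.7% in Fancl (with Vrk2). The other 14, among them Slx4, Fan1, Rad51c, Usp1 and Brca1, share none. Strandedness is not given in the sources used here, and reads of neighbours that overlap cannot be told apart.

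**Figure D1:**
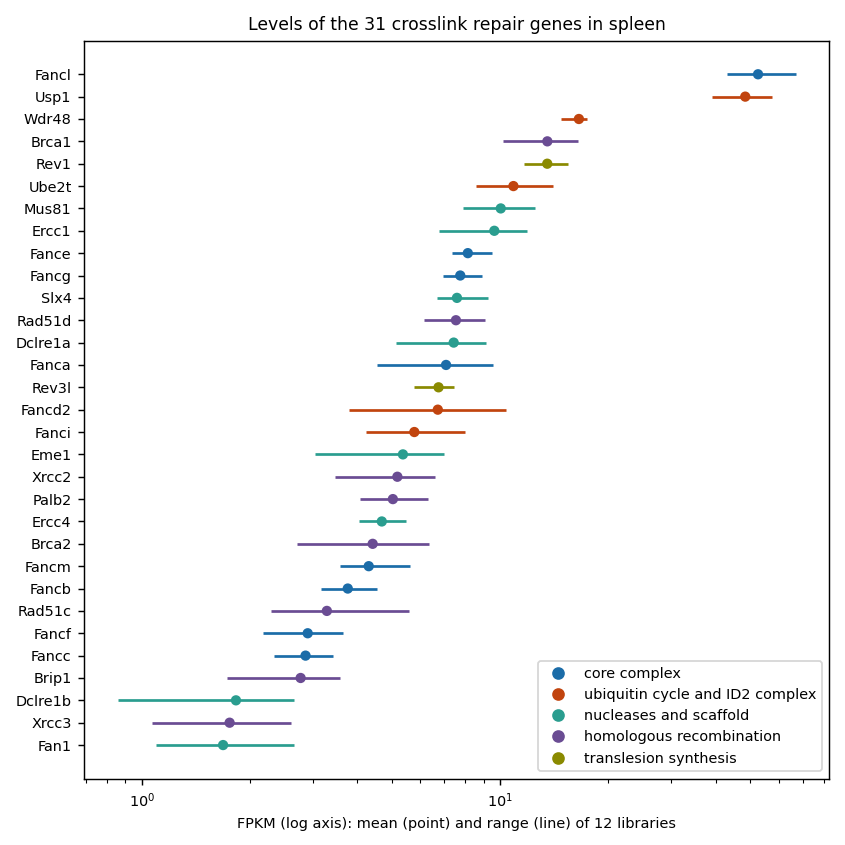
Mean level (point) and range over the 12 libraries (line) of each of the 31 genes, in FPKM on a log axis, coloured by role. Fancl and Usp1 stand apart at the top, at 52.5 and 48.3 FPKM, and Fan1 is lowest at 1.69.

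Of the 31 genes, 8 followed the level of cell cycle genes from library to library within groups. Each gene was fitted in edgeR with a mean per group and a slope on the cell cycle level of the library, which is the mean log2 CPM of 35 replication and mitosis genes centred within each group. The slope therefore uses only differences between libraries of the same group. It passed the test (adjusted p under 0.05 over all genes, called from here on) in these 8 genes, all with a positive slope, against 5.82% of all genes tested, 4.73% with a positive slope. The median slope was 0.29 log2 units per log2 unit of cell cycle level, against -0.04 over all genes.

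Fancd2, which receives the ubiquitin, had the slope with the smallest p, at 1.46 ± 0.12 (SE) and an edgeR adjusted p of 0.000372. Its level was 23.9, 24.7 and 37.1 CPM in the controls, 18.1, 31.5 and 27.5 with AOS, 30.0, 35.7 and 41.4 with busulfan, and 39.3, 50.8 and 32.5 with both. Within each group the library with the highest cell cycle level (control 3, AOS 2, busulfan 3 and the second library with both) also had the highest Fancd2. Brca1, which directs broken ends to recombination, stood at 53.6, 52.4 and 82.2 CPM in the controls, 45.5, 68.9 and 59.8 with AOS, 72.4, 74.5 and 83.0 with busulfan, and 70.6, 90.7 and 65.2 with both. Its slope was 1.18 ± 0.10 (edgeR adjusted p = 0.000416), and the same 4 libraries were the highest of their groups.

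The other 6 called genes were Usp1 (slope 0.59), Brca2, a mediator of recombination (1.10), Fanci, the partner of FANCD2 (0.83), the helicase Brip1 (1.11), Eme1, a subunit of the MUS81 nuclease (1.33), and Palb2, which links BRCA1 to BRCA2 (0.76). By role, 3 of 5 genes of the ubiquitin cycle, 4 of 8 of homologous recombination and 1 of 8 nucleases were called, and 0 of 8 of the core complex and 0 of 2 of translesion synthesis. Slopes close to 0 were found for the scaffold Slx4 (0.04 ± 0.11), Ercc4 (-0.05 ± 0.16), Rev1 (0.03 ± 0.18) and the core subunit Fanca (-0.07 ± 0.44), the last with a wide error. At an unadjusted p under 0.05, 12 genes had a positive slope (38.7%, against 10.5% of all genes), the further ones being Fancm, Xrcc2, Xrcc3 and Dclre1a, and 0 had a negative slope (against 9.22%). Among 11 erythroid genes 11 had called positive slopes (median 1.23), against 4.73% of all genes. Among 9 T cell genes 5 had called negative ones (median -1.07), against 1.09%. In bulk tissue, fewer cells of a type and less RNA per cell cannot be told apart. The count of 8 was 3 without control 3, 4 without AOS 1 and 5 without the second library with both treatments. It was 7 to 9 without any other single library. Shares of all genes in those fits are not reported here.

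**Figure D2:**
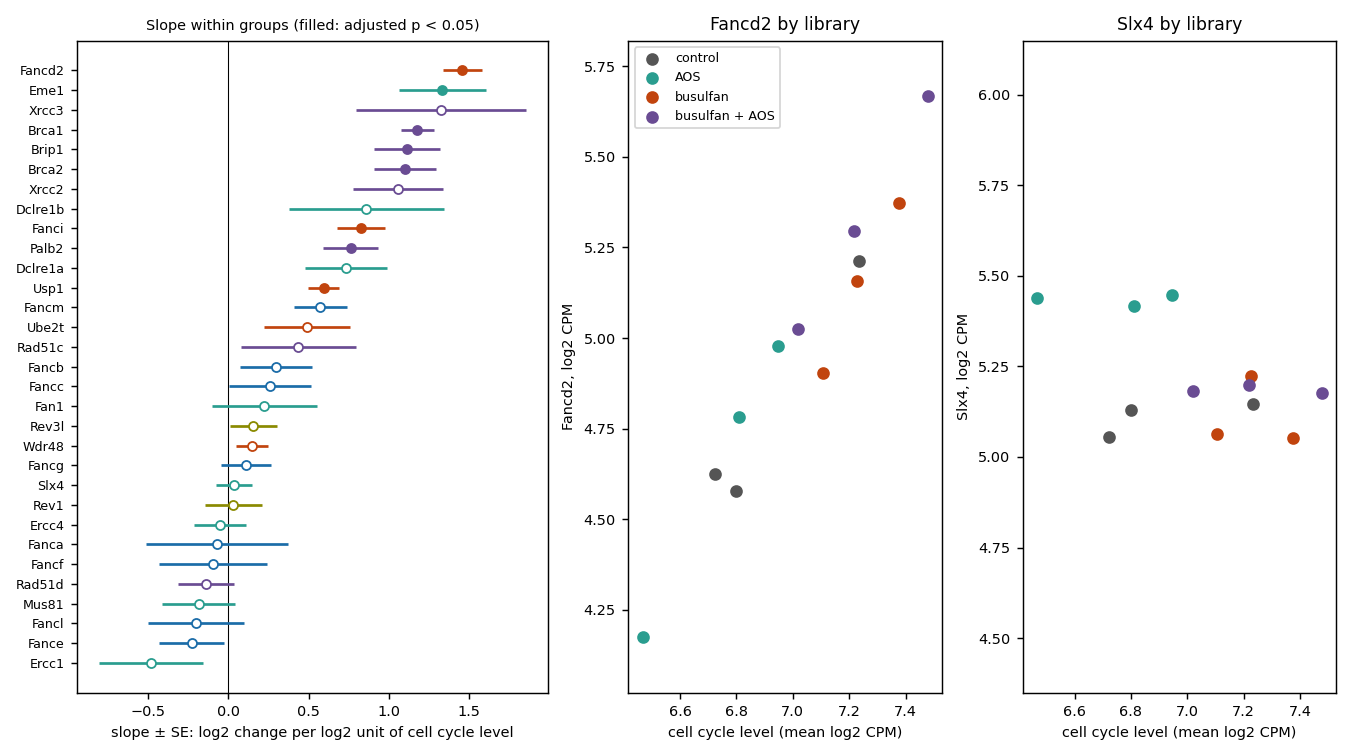
Left, slope of each gene on the cell cycle level within groups, in log2 units per log2 unit, with SE, filled where the adjusted p was under 0.05. Centre and right, log2 CPM of Fancd2 and Slx4 in each library against the cell cycle level, on axes of equal span: Fancd2 climbs with it (slope 1.46), and Slx4 does not (slope 0.04) but is higher in the 3 AOS libraries.

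Promoters of 3 genes with a called slope and of 1 without are printed because E2F factors and the CCAAT-binding factor NF-Y are known to act at cell cycle promoters. RefSeq windows of GRCm38.p6, from 250 bases before to 50 bases after the start, were at hand for 26 of the 31 genes in 27 windows, and are shown 5′ to 3′ on the strand of the gene. Capitals mark the E2F words TTTCCCGC, TTTCGCGC, TTTGCCGC and TTTGGCGC and the box CCAAT, on either strand.
Brca2 (slope called, chr5:150522371-150522670, plus strand): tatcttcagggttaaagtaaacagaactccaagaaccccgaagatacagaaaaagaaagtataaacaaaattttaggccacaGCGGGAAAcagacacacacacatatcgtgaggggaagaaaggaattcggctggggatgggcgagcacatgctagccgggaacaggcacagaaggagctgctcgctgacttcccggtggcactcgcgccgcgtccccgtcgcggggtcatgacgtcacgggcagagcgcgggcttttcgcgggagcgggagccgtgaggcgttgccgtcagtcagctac
Brip1 (slope called, chr11:86201144-86201443, minus strand): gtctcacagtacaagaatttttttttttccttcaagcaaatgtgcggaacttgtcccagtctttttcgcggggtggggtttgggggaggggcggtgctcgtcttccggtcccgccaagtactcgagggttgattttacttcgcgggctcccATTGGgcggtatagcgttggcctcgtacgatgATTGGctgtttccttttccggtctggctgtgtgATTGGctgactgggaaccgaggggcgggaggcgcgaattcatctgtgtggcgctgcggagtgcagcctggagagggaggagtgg
Fanci (slope called, chr7:79392088-79392387, plus strand): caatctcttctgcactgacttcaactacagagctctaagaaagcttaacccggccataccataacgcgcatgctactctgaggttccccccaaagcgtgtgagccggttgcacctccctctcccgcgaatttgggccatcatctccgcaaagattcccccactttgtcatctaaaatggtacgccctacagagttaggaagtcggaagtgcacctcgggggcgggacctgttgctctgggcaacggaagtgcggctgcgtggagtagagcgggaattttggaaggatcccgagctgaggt
Fancg (slope not called, chr4:43010252-43010551, minus strand): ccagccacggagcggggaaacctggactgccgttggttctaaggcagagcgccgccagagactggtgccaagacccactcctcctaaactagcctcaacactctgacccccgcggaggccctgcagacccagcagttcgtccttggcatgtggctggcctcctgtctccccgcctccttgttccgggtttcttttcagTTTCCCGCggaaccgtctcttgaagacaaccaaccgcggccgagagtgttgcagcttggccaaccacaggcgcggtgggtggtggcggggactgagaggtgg
Brca2 holds 1 E2F word 168 bases before the start and Fancg holds 1 at 52 bases before it. Brip1 holds 3 boxes on the reverse strand, and the Fanci window holds neither word. That window lies after the start of Fanci in GENCODE (chr7:79391929), so bases before that start were not searched. The same holds for the windows of Slx4, Fancl, Fancc and Ercc1 and for the Rad51c window chr11:87404457-87404756. All of these are included in the counts that follow. An E2F word lay in 4 of the 27 windows (14.8%; Brca2, Fancg and both windows of Rad51c), against 2.26% of 32851 promoter windows and 30.0% of 30 windows of the cell cycle genes. It was in 1 of 6 windows of genes with a called slope and in 3 of 21 of the rest. The CCAAT box was in 13 of 27 windows (48.1%) against 37.4% of all, and the words TTTGAA and TTCGAA of the CHR element were in 2 of 27 (7.41%) against 19.2%. These counts describe letters in short windows and were not tested.

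The first comparison, busulfan against control, concerns mice without AOS. None of the 31 genes was called, against 0.471% of all genes. At an unadjusted p under 0.05, 4 genes were higher (Rad51c, Dclre1b, Fanci and Ube2t) against 9.10% of all genes, and 0 were lower against 11.5%. DESeq2, used as a second tool, called 2 of the 31, Rad51c and Dclre1b, against 6.18% of the genes it tested. The 3 busulfan libraries lay wholly above the controls in 4 genes (Rad51c, Dclre1b, Ube2t and Fancb) and wholly below in 1 (Ercc1), against 11.0% and 12.6% of all genes. The median log2 difference of the 31 genes was 0.11, against -0.01 over all genes. It was 0.04 without busulfan 3, 0.06 without control 1 and 0.06 without control 2. It was 0.12 without busulfan 1 and 0.15 without control 3.

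Busulfan with AOS against AOS asks the same in mice given AOS, and called 2 of 31 genes against 5.81% of all. Fan1 rose and Slx4 fell. At an unadjusted p under 0.05, 8 genes were higher (25.8%, against 12.3% of all genes) and 2 were lower (against 13.4%). The median was 0.21 against 0.00 (0.14 without AOS 1 and 0.24 without AOS 3). The same 10 genes were those whose groups did not overlap, 8 higher and 2 lower, against 14.6% and 17.0% of all genes. DESeq2 called 7 of the 31 against 11.4% of the genes it tested, adding Brca2, Brip1, Dclre1a, Fanci and Usp1. With both busulfan comparisons averaged, 1 of 31 genes was called against 8.23% of all, and it was Fanci. Here 11 genes were higher at an unadjusted p under 0.05 (35.5%, against 13.9% of all genes), only Slx4 was lower (against 15.8%), and the median was 0.21 against -0.00. With single libraries left out that median ran from 0.15 (without AOS 1) to 0.29 (without control 3). DESeq2 called 6 against 14.9%, adding Dclre1a, Dclre1b, Fancd2, Rad51c and Usp1. By role the median in this averaged comparison was 0.34 for homologous recombination, 0.29 for the ubiquitin cycle, 0.10 for the nucleases, 0.05 for the core complex and -0.00 for translesion synthesis. Markers of several cell types moved in the same averaged comparison, in which 3.10% of all genes were called higher and 5.13% lower. Of 10 neutrophil genes 8 were called higher (median 1.69), of 10 B cell genes 8 were called lower (median -0.44), and of 8 genes of NK and cytotoxic cells 7 were called lower (median -1.23). The 11 erythroid genes all had positive differences (median 0.34) with 0 called. Over all genes this comparison called 8.23%, and 0.543% to 13.5% with single libraries left out. For lists other than the 31 genes, calls in those fits are not reported here. Neutrophil genes summed to 586 to 1129 CPM in the controls, 868 to 1306 with AOS, 1780 to 9813 with busulfan and 807 to 2249 with both. The part of these cell types in the differences of the repair genes was not tested.

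**Figure D3:**
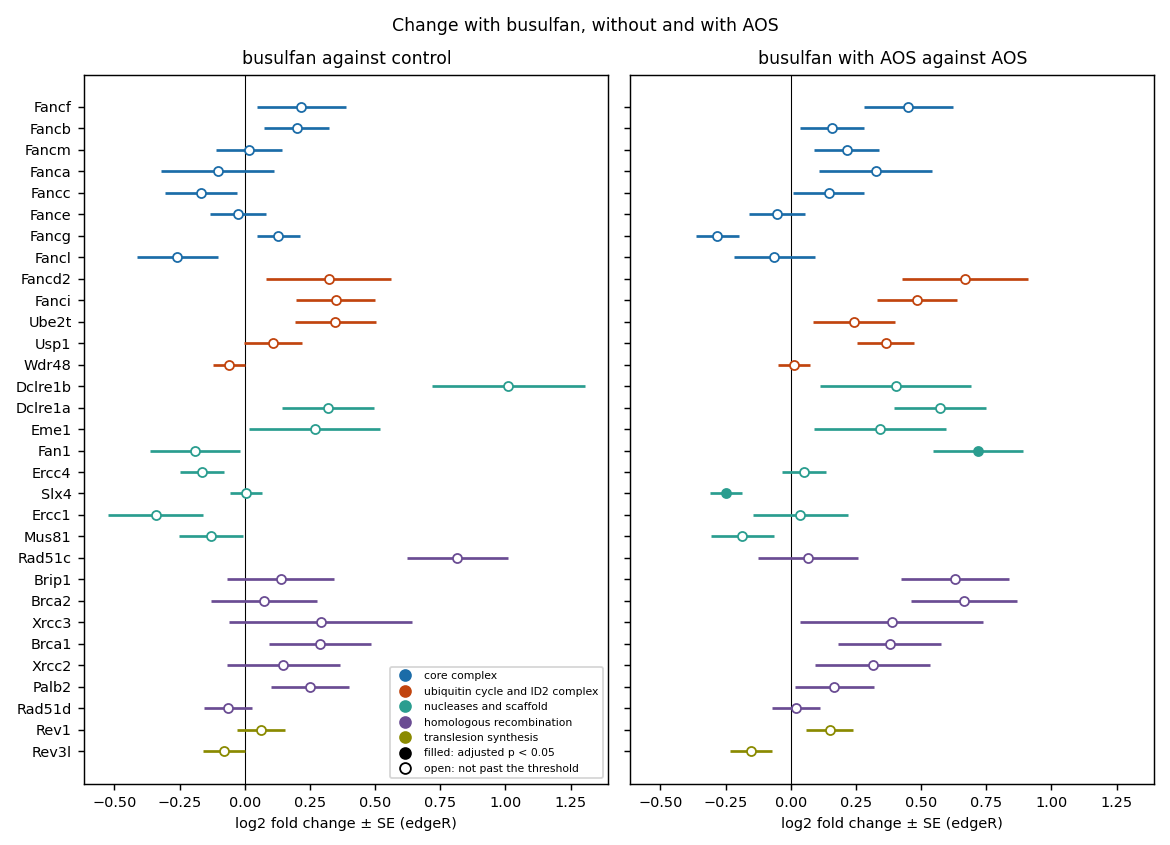
Log2 fold change with SE of each gene in busulfan against control (left) and busulfan with AOS against AOS (right), by role, filled where the edgeR adjusted p was under 0.05. Only Fan1 (0.72) and Slx4 (-0.25) are filled, both on the right, and most open points on the right lie above 0.

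In the ubiquitin cycle, Fanci stood at 20.6, 20.3 and 25.2 CPM in the controls, 18.2, 22.4 and 24.5 with AOS, 24.8, 28.1 and 31.3 with busulfan, and 28.9, 36.3 and 26.1 with both. All 3 libraries with both treatments lay above all 3 with AOS, while busulfan overlapped the controls by 1 library. Averaged over AOS, Fanci rose by 0.42 ± 0.11 on the log2 scale (edgeR adjusted p = 0.0425). That call was lost when any of 8 single libraries was left out (edgeR adjusted p 0.0609 to 0.102 in those cases), namely control 1 or 2, AOS 1 or 2, busulfan 2 or 3, or the first or second library with both. Usp1 stood at 146, 147 and 181 CPM in the controls, 131, 162 and 150 with AOS, 153, 172 and 186 with busulfan, and 189, 202 and 180 with both. Every library with both treatments was above every AOS library, for a log2 difference of 0.36 ± 0.11 that missed the threshold (edgeR adjusted p = 0.0721). Fancd2, whose values are given above, differed by 0.67 ± 0.24 in that comparison (edgeR adjusted p = 0.115). Ube2t, the conjugating enzyme, was higher in all 3 busulfan libraries (9.64 to 12.4 CPM) than in the controls (7.20 to 9.40), by 0.35 ± 0.16 (edgeR adjusted p = 0.238). Wdr48 kept between 56.8 and 65.5 CPM in all 12 libraries, the narrowest span of the 31 genes (1.15 between the highest and the lowest library as a ratio).

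Among the nucleases, Fan1, which trims DNA at crosslinks, gave the largest called difference. It stood at 4.79, 7.20 and 7.10 CPM in the controls, 5.38, 4.70 and 6.24 with AOS, 5.56, 5.58 and 5.57 with busulfan, and 8.88, 9.71 and 8.26 with both. The libraries with both treatments were above all 9 others. Fan1 rose with busulfan in AOS mice by 0.72 ± 0.17 (edgeR adjusted p = 0.0401). The difference was 0.62 without AOS 2, the library with the most pancreatic transcripts (edgeR adjusted p = 0.0984). It was 0.77 with the pancreatic level as a covariate (edgeR adjusted p = 0.219). Without AOS 2, 1.82% of all genes were called, and with that covariate 0 of 15079, against 5.81% in the main fit. The Fan1 call held in 11 of the alternative analyses and was lost in 13. With both treatments against busulfan it was 0.68 ± 0.17 (edgeR adjusted p = 0.0565).

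Slx4, the scaffold that holds the nucleases, stood at 35.0, 33.3 and 35.4 CPM in the controls, 43.3, 43.6 and 42.7 with AOS, 33.5, 37.3 and 33.2 with busulfan, and 36.7, 36.1 and 36.3 with both. The 3 AOS libraries were above the other 9, and their SD was 0.474 CPM. Slx4 fell by 0.25 ± 0.06 with busulfan in AOS mice (edgeR adjusted p = 0.0437). The difference was -0.24 without AOS 2 (edgeR adjusted p = 0.0960), where 1.82% of all genes were called. It was -0.26 with the pancreatic level as a covariate (edgeR adjusted p = 0.262), where 0 of 15079 genes were called. The Slx4 call held in 6 alternatives and was lost in 18.

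Dclre1b, a nuclease that also acts at telomeres, stood at 3.45, 4.59 and 7.74 CPM in the controls, 5.89, 7.35 and 5.54 with AOS, 11.3, 9.30 and 11.2 with busulfan, and 5.48, 9.83 and 9.49 with both. Busulfan libraries were all above the controls, by 1.01 ± 0.29 (edgeR adjusted p = 0.104; 0.79 without control 1, adjusted p = 0.228), and the groups given AOS overlapped. Dclre1a, its relative known for crosslink repair, stood at 21.1, 22.9 and 34.7 CPM in the controls, 19.8, 21.8 and 27.5 with AOS, 33.0, 30.0 and 35.2 with busulfan, and 32.3, 36.2 and 34.3 with both. Control 3 alone among the 6 libraries without busulfan lay in the range of the busulfan libraries, and the averaged difference was 0.45 ± 0.12 (edgeR adjusted p = 0.0516).

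The nuclease pair Ercc1 and Ercc4 (XPF) had their lowest group means with busulfan alone. Ercc1 stood at 10.3, 10.2 and 11 CPM in the controls and 10.2, 7.95 and 6.77 with busulfan, and at 10.7, 8.41 and 9.57 with AOS and 12, 7.79 and 9.68 with both. Ercc4 stood at 26.0, 27.5 and 22.8 CPM in the controls, 24.7, 26.0 and 26.8 with AOS, 22.3, 22.4 and 23.5 with busulfan, and 28.6, 26.8 and 25.0 with both. Against control the differences were -0.34 ± 0.18 for Ercc1 and -0.16 ± 0.08 for Ercc4, and neither passed the test (edgeR adjusted p 0.314 and 0.299). Mus81, the nuclease paired with EME1, stood at 22, 20.3 and 19.4 CPM in the controls, 25.2, 22.8 and 20.2 with AOS, 16.9, 17.8 and 21.7 with busulfan, and 21.8, 18 and 20.1 with both. Its groups overlapped in every comparison. Eme1 ranged from 6.27 to 14.4 CPM over the 12 libraries, and its groups overlapped as well.

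In homologous recombination, Rad51c, which acts in strand exchange, stood at 5.23, 5.42 and 6.08 CPM in the controls, 5.70, 7.81 and 7.56 with AOS, 12.4, 7.44 and 9.62 with busulfan, and 7.68, 7.85 and 6.53 with both. All busulfan libraries were above all controls, by 0.82 ± 0.19, the smallest p of the 31 genes in that comparison (edgeR adjusted p = 0.0724), and by 0.78 without control 1 (adjusted p = 0.156). Brca2 stood at 34.4, 44.3 and 58.1 CPM in the controls, 28.3, 41.6 and 39.7 with AOS, 42.1, 45.9 and 56.1 with busulfan, and 54.0, 68.1 and 51.7 with both. Without AOS the groups overlapped, with AOS they did not, and the difference there was 0.66 ± 0.20 (edgeR adjusted p = 0.0758). Brip1 likewise did not overlap between AOS (10.8 to 18.6 CPM) and both treatments (21.5 to 24.9), by 0.63 ± 0.21 (edgeR adjusted p = 0.0911). Brca1, Palb2, Xrcc2, Xrcc3 and Rad51d overlapped in both busulfan comparisons, with averaged log2 differences from -0.02 (Rad51d, another recombination gene) to 0.34 (Xrcc3).

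The core complex showed small and mixed differences. Fancl stood at 214, 277 and 193 CPM in the controls, 231, 246 and 175 with AOS, 172, 179 and 222 with busulfan, and 200, 207 and 217 with both, and all groups overlapped. Fancg, a core subunit, stood at 20.9, 18.2 and 19.5 CPM in the controls, 22.6, 22.8 and 21 with AOS, 20.5, 21.9 and 21.7 with busulfan, and 19.2, 18.6 and 16.8 with both. It was lower in every library with both treatments than in every AOS library, by -0.28 ± 0.08 (edgeR adjusted p = 0.0700). Fancf, the adaptor that joins the parts of the core, was higher with both treatments (4.62 to 5.74 CPM) than with AOS (3.46 to 4.30), by 0.45 ± 0.17 (edgeR adjusted p = 0.130). Fanca, Fance, Fancb, Fancc and Fancm had averaged log2 differences between -0.04 and 0.18 with no call.

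For translesion synthesis, Rev3l, the catalytic subunit of polymerase zeta, stood at 69.2, 72.0 and 73.9 CPM in the controls, 71.5, 77.9 and 79.9 with AOS, 66.1, 75.8 and 61.8 with busulfan, and 71.9, 69.9 and 64.7 with both. Rev1, its partner, ranged from 47.0 to 63.4 CPM. The groups of both genes overlapped in both busulfan comparisons.

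**Figure D4:**
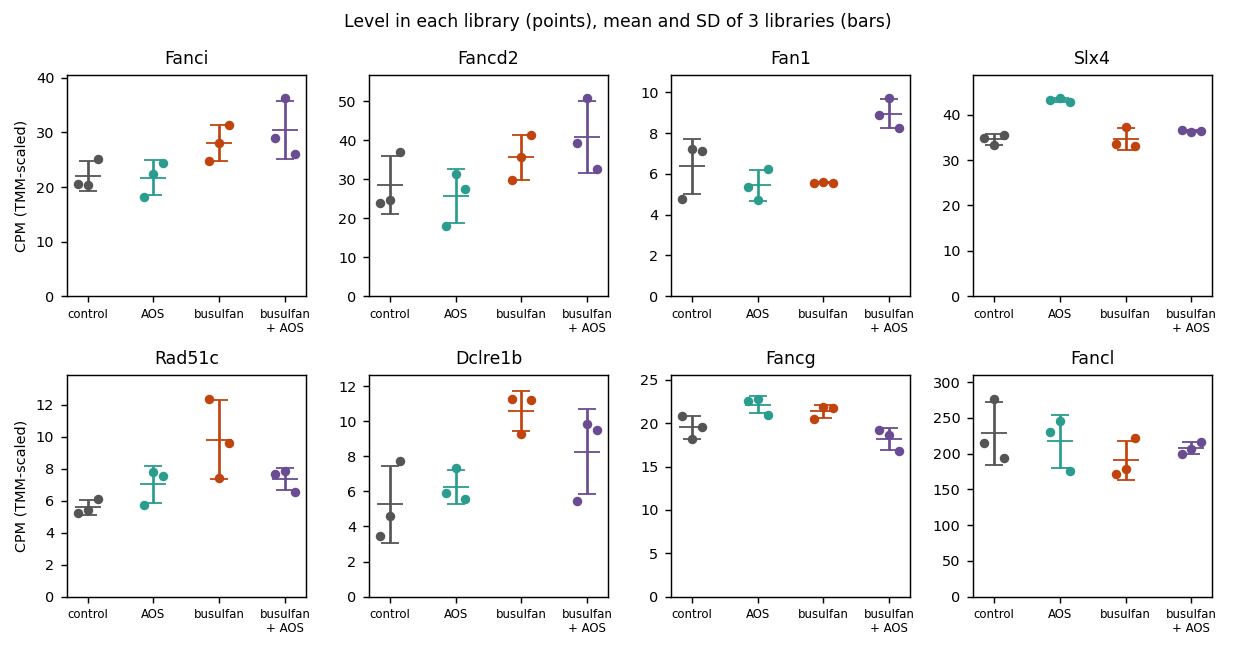
Level of 8 of the genes in each library (points), with mean and SD of the 3 libraries of a group, in CPM from 0. Fan1 is highest in the 3 libraries with both treatments (8.26 to 9.71), Slx4 in the 3 with AOS (42.7 to 43.6), and the group mean of Rad51c and of Dclre1b is highest with busulfan, while the groups of Fancl overlap.

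The level of cell cycle genes also differed between the groups. Their summed level was 5422 to 8140 CPM in the controls, 4436 to 6320 with AOS, 7121 to 8557 with busulfan and 6566 to 9300 with both, and 8 of 35 were called higher in the averaged comparison (against 3.10% of all genes), with a median log2 difference of 0.39. With the cell cycle level of each library as a covariate in the same edgeR fit, the averaged median of the 31 repair genes went from 0.21 to -0.04, and the number of positive differences from 20 to 13 of 31. Without AOS the median went from 0.11 to -0.08, and with AOS from 0.21 to 0.02. The averaged difference of Fancd2 went from 0.50 to -0.08, of Fanci from 0.42 to 0.08, of Brca1 from 0.33 to -0.13 and of Usp1 from 0.24 to -0.00. Dclre1b went from 0.71 to 0.38 and Rad51c from 0.44 to 0.27. Slx4 went from -0.12 to -0.14 and Fancf from 0.33 to 0.37. None of the 31 genes, and 0 of all 15079, was called with the covariate in the averaged comparison. Since the cell cycle level differs between the groups, the covariate takes up part of the contrast itself, and what belongs to busulfan and what to the number of dividing cells cannot be told apart.

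**Figure D5:**
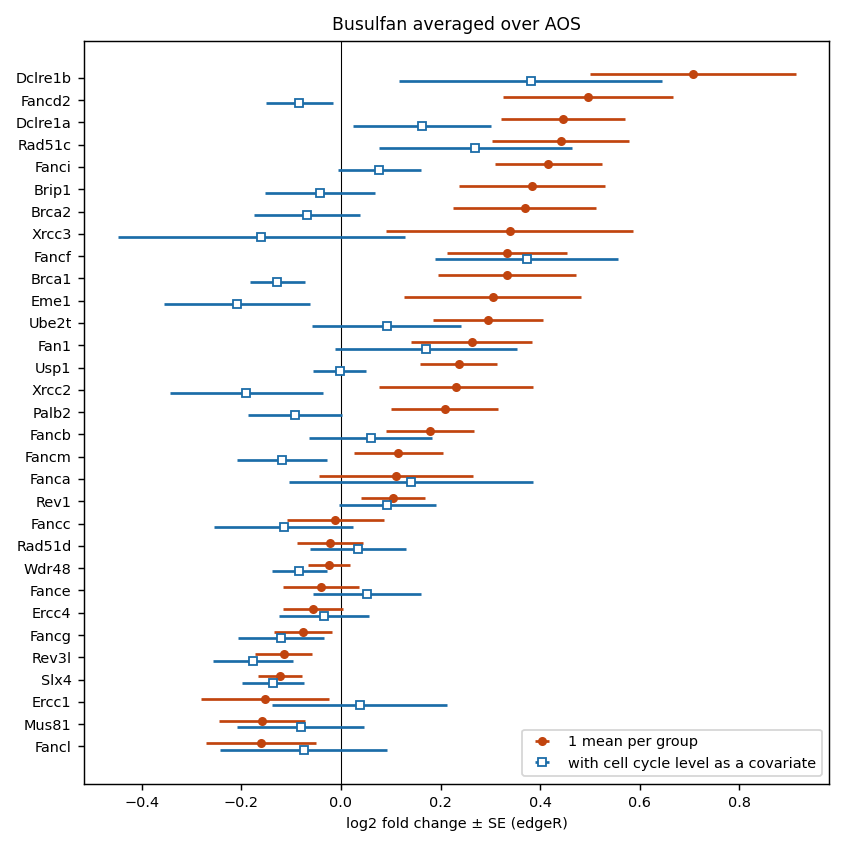
Averaged busulfan log2 fold change with SE of each gene, from the fit with 1 mean per group (circles) and with the cell cycle level as a covariate (squares). The circles of Fancd2 (0.50) and Brca1 (0.33) have squares below 0, while Fancf keeps its place (0.33 and 0.37).

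AOS against control concerns mice without busulfan, and called 0 of the 31 genes against 0.0% of all. In this comparison 14 of 14 pancreatic genes were higher at an unadjusted p under 0.05 (median log2 difference 7.74). The 7 fat cell genes tested were all lower at that p (median -4.74). Differences that go with AOS and differences that go with such tissue therefore cannot be told apart here. At an unadjusted p under 0.05, Slx4 was higher (0.32 ± 0.06, edgeR adjusted p = 0.449; 0.32 without AOS 2 and 0.33 without control 1) against 3.02% of all genes, and Fancc, a core subunit, was lower (-0.31 ± 0.14) against 2.90%. Fancc stood at 9.13, 8.60 and 9.66 CPM in the controls and 6.72, 7.94 and 7.50 with AOS, without overlap, and at 8.37, 9.24 and 6.77 with busulfan and 7.75, 8.94 and 7.83 with both. DESeq2 called 1 of the 31, Slx4, against 0.427% of the genes it tested. Without overlap, Slx4 and Fancg were higher and Fancc was lower, against 5.63% and 5.19% of all genes. Fancb, a core subunit on the X chromosome, stood at 7.85, 8.54 and 8.06 CPM in the controls, 8.45, 11.2 and 9.89 with AOS, 9.77, 9.11 and 9.18 with busulfan, and 11.8, 11.4 and 9.80 with both. Its controls and AOS libraries overlapped by 1 library.

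Busulfan with AOS against busulfan asks whether AOS altered the state after the drug. It called 0 of 31 genes against 3.02% of all, and DESeq2 called 1, Fan1, against 7.50%. At an unadjusted p under 0.05, Fan1, Ercc4 and Fancm were higher (against 10.7% of all genes) and Fancg was lower (against 10.5%). Groups did not overlap in 5 genes that were higher (Fan1, Ercc4, Fancb, Brip1 and Rad51d) and in Fancg, which was lower, against 14.3% and 12.9% of all genes. Fancm, the core complex translocase, stood at 25.9, 28.7 and 34.3 CPM in the controls, 30.4, 33.9 and 32.4 with AOS, 28.2, 32.9 and 28.9 with busulfan, and 36.9, 43.2 and 32.2 with both. The last 2 of these groups overlapped, with a log2 difference of 0.32 ± 0.13. AOS averaged over busulfan called 0 of 31 genes in edgeR against 0.0% of all, with 3 at an unadjusted p under 0.05 (Slx4, Fancb and Fancm, all higher, against 6.53%) and 0 lower (against 5.53%), and DESeq2 called 1, Slx4, against 1.43%.

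The interaction, which tests whether the busulfan difference depends on AOS, called 0 of 31 genes against 0.484% of all, and DESeq2 called 1, Fan1, against 4.36%. At an unadjusted p under 0.05, Fan1 was positive (0.91 ± 0.24, edgeR adjusted p = 0.111) against 8.12% of all genes. Fancg, Slx4 and Rad51c were negative, against 8.48%. Rad51c gave -0.75 ± 0.27 (edgeR adjusted p = 0.203), the busulfan difference being 0.82 in mice without AOS and 0.07 in mice with it.

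Beside these genes, 47 further genes of crosslink repair were tested, such as the accessory proteins of the core complex. In the averaged busulfan comparison 6 of the 47 rose (12.8%, against 3.10% of all genes) and 0 fell (against 5.13%), and among the 6 were the recombination cofactor Rad51ap1 (0.47 ± 0.13), the end-resection genes Dna2 (0.49 ± 0.12, edgeR adjusted p = 0.0388) and Rbbp8 (0.32 ± 0.08), the ubiquitin ligase Rad18 (0.42 ± 0.11) and the helicase cofactor Rmi2 (0.50 ± 0.13). With AOS, 2 of the 47 rose (4.26%, against 2.36% of all genes), Rad18 (0.87 ± 0.16, edgeR adjusted p = 0.0206) and Rbbp8 (0.56 ± 0.12). Without AOS 0 of the 47 were called, and the smallest p belonged to Rmi2 (0.75 ± 0.19, edgeR adjusted p = 0.0743) and Shprh, a ubiquitin ligase of damage tolerance (-0.32 ± 0.09, edgeR adjusted p = 0.0985). On the cell cycle level within groups, 14 of the 47 had a called slope, all positive (29.8%, against 4.73% of all genes). Of 16 target genes of p53, the factor that responds to DNA damage, 3 were called higher without AOS (against 0.133% of all genes), 2 with AOS (against 2.36%) and 6 in the averaged comparison (against 3.10%), where 1 was called lower (against 5.13%).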

How the data were processed

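RNA of 12 spleen libraries was measured by sequencing, 3 in each of 4 groups taken from the labels. The values used are expected counts per gene, deposited by the authors in columns headed as read counts, of which 75.7% are whole numbers (to within 1e-09). The normalised values in the same table were read as FPKM deposited by the authors, since count divided by value tracked library size with a deviation of at most 0.336% in 1227 genes of 2000 counts or more. The genome build is mm10 per the submitters' processing notes. For the aligner, the counting program and its annotation, and the library type, details were not given in the sources used here. A further 8 columns of group averages were not used.

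The 31 genes and all gene lists were chosen with earlier results of these data known. After rounding, the counts were analysed in R 4.3.3 with edgeR 4.0.16: filterByExpr kept 15079 genes, TMM factors ran from 0.965 to 1.04, and glmQLFit fitted 1 mean per group to all 12 libraries (8 residual and 2.97 prior degrees of freedom, biological coefficient of variation 18.9%). Each contrast had a two-sided glmQLFTest, its p-values were Benjamini-Hochberg adjusted across the 15079 genes, and the script was tested on simulated counts. The SE is the log2 fold change divided by the square root of F. Within groups, pairs of libraries gave a chi-square per degree of freedom of 15.9 to 72.7, far above sampling noise, so no library was counted as a copy of another. Other tools were Python 3.11.15 with matplotlib 3.10.9, scipy 1.17.1, pandas 2.3.3 and numpy 2.4.6, and in R limma 3.58.1 and DESeq2 1.42.0. Gene positions and exon overlaps come from GENCODE annotation of GRCm38, and promoter windows from RefSeq.

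Values in every library are given for genes that passed in any of 7 comparisons, for the 3 genes per direction whose p was smallest in each of 5 comparisons, and for the highest and lowest FPKM. Fancd2 and Brca1 were added after their values were seen, as were the slope on the cell cycle level and its alternatives. The alternatives were other scalings, filters and tools, FPKM with a pseudocount of 1, fits to the compared libraries alone, replicate number as a block, cell cycle or pancreatic level as a covariate, and libraries left out. One of the further crosslink repair genes that was called is counted but not reported by name here.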

Additional observations from a re-analysis of the deposited data

Results flagged for a closer look

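Fancg, a subunit of the Fanconi core complex, was flagged from these data for AOS differences of opposite sign in mice with and without busulfan. Neither difference was called. Without busulfan the AOS libraries were all above the controls, by a log2 difference of 0.18, as in 5.63% of all genes. This difference was not past an unadjusted 0.05. After busulfan the libraries with AOS were all below those without, by -0.23, as in 12.9% of all genes. The interaction that tests whether the AOS difference depends on busulfan was -0.41 ± 0.12 (edgeR adjusted p = 0.122). It was past an unadjusted 0.05 but not past the threshold over all genes. Since Fancg was picked for this pattern, the interaction is no independent test of it. The share of all genes that separate in opposite directions is not reported here. The groups hold 3 libraries each, so single libraries were not examined for standing apart from their group.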

How the results depend on the processing

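The numbers of called genes were small and depended on the processing. For busulfan with AOS against AOS, the count of 2 became 1 with library totals in place of TMM (4.85% of all genes). It became 0 without the filter (3.19%), 7 with DESeq2 (11.4%) and 0 with only the compared libraries (3.01%). It was 0 with the cell cycle covariate (0.0398%), with the pancreatic covariate (0% of all genes) and without control 1 and AOS 2 together (0.329%). With single libraries left out it was 0 to 2 (0.183% to 5.98%). It was 0 without any library of the AOS or the combined group or without busulfan 1, and 1 without control 1, control 2 or busulfan 2. For the averaged busulfan comparison, the count of 1 became 2 with upper quartile scaling (8.96% of all genes) and 2 with the stricter filter (12%). It became 6 with DESeq2 (14.9%) and 0 with the cell cycle (0%) or the pancreatic (3.08%) covariate. It was 0 without control 1 and AOS 2 together (0.0592%), and 0 to 9 with single libraries left out (0.543% to 13.5%). It was 0 without control 1, control 2, AOS 1, AOS 2, busulfan 3 or the second library with both, and 2 without AOS 3. The value 9 came without control 3, the control with the highest cell cycle level, when 13.5% of all genes were called. The 9 were Brca1, Brca2, Brip1, Dclre1a, Dclre1b, Fancd2, Fanci, Palb2 and Usp1. DESeq2 gave 2 for busulfan against control, and 1 each for AOS against control, AOS averaged over busulfan and the interaction. Busulfan with AOS against busulfan went from 0 to 1 (Fan1) with the stricter filter (4.74% of all genes) and with DESeq2 (7.50%). It did so too with the cell cycle covariate (6.19%) and without control 1 and AOS 2 together (1.14%). With single libraries left out, counts ran from 0 to 1 for busulfan against control (Rad51c, without busulfan 2, against 3.08% of all genes). They also ran from 0 to 1 for busulfan with AOS against busulfan (Fan1, without control 1, against 2.24%). The slope on the cell cycle level gave 3 to 9. Counts stayed at 0 for AOS against control, AOS averaged over busulfan and the interaction. No direction of a gene called in the main fit was reversed in the alternatives. Of the 9 named above, Brca1, Brca2, Brip1, Fancd2, Palb2 and Usp1 had averaged differences below 0 with the cell cycle covariate. Those of Dclre1a, Dclre1b and Fanci stayed above 0. Library totals moved the median slope of all genes from -0.04 to -0.17, where 7 of the 31 genes were called, against 7.38% of all genes. Causes were not tested.

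Labels number the libraries 1 to 3 in each group without saying that a number is shared. Of 18 same-numbered pairs 5 had deviations correlated over 0.1 (range -0.07 to 0.27), and 5 of 12 libraries were closest to their own number. The libraries were therefore taken to share only a number. Pairs with and without AOS in the same busulfan state all correlated above 0 (0.07 to 0.27), and the other pairs ran from -0.07 to 0.18. These values do not settle whether the former pairs share more than a number. With replicate number as a block, the averaged busulfan comparison called 2 genes, against 8.57% of all genes. Busulfan with AOS against AOS called 3 (Brca2, Dclre1a and Fan1), against 5.95%. The slope on the cell cycle level called 4 in place of 8. The share of all genes in that fit is not reported here, so a loss of calls over all genes cannot be judged.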
